A study of Rattus norvegicus with 6 samples.

Results

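The miR-379 to miR-410 cluster is a run of miRNA genes in the imprinted Dlk1-Dio3 domain of rat chromosome 6. Its members were taken by position in the deposited table of UMI counts: every miRNA on the + strand whose start lies between the start of miR-379-5p (133857715) and 5000 bases past the start of miR-410-3p (133894042). The file gives these positions without naming a genome build. The rule gave 67 of the 749 miRNAs of the table, from 36 hairpins, and each of the 67 has 1 locus. The last of them by position is miR-3072. No measured value was used to choose them. The study sequenced exosomal RNA of bone marrow mesenchymal stem cells (MSCs) of Sprague-Dawley rats, in 3 libraries of MSCTXL-Exo and 3 libraries of MSC-Exo. MSCTXL-Exo are exosomes of MSCs pretreated with 400 μg/mL Tongxinluo (TXL), a Chinese medicine compound, for 24 h, and MSC-Exo are exosomes of MSCs without the pretreatment. Exosomes of both groups were pelleted by ultracentrifugation from medium with exosome-free serum. As the RNA is pooled over many vesicles, fewer exosomes with a miRNA and fewer copies per exosome cannot be told apart.

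The domain holds genes that are expressed from the paternal allele, among them Dlk1 and Dio3, and noncoding RNAs that are expressed from the maternal allele, among them Meg3. The miRNAs of the cluster are cut from long noncoding transcripts of the maternal allele. Each hairpin gives a mature 5p arm and a mature 3p arm, of which usually one is loaded into Argonaute and recognizes targets through its seed, bases 2 to 8. The cluster is known best from brain, where the transcription factor Mef2 induces it in neurons, and from embryonic and mesenchymal tissues. In the RefSeq annotation of GRCr8, the hairpin gene Mir379 lies between Rtl1 and Dio3. There the hairpins are held by 2 annotated long noncoding RNAs, LOC102555254, with 15 hairpins from miR-379 to miR-376b, and LOC120103623, with 20 hairpins from miR-376a to miR-3072. For miR-679 no gene was matched.

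The mature sequences below belong to the most abundant members and to those past the thresholds in edgeR's main or blocked test, described below. They are from RefSeq (GRCr8, chromosome 6, + strand), written 5′ to 3′ with the seed in capitals. Of the 67 members 65 had a RefSeq sequence.
miR-412-3p: cUUCACCUgguccacuagccgu
miR-369-5p: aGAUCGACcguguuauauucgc
miR-369-3p: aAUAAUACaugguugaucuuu
miR-382-5p: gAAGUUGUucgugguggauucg
miR-541-5p: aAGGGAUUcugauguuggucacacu
miR-379-5p: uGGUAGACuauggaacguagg
miR-379-3p: cUAUGUAAcaugguccacuaac
miR-411-3p: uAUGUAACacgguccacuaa
miR-376b-3p: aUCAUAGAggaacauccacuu
miR-668: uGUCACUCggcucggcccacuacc

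The 65 sequences had 61 different seeds. Only 3 seeds were shared within the cluster, by 7 members in all, and none of these members is abundant. GGUUGUC is the seed of miR-494-5p, miR-496-5p and miR-410-5p. AUACAAG is shared by miR-381-3p and miR-539-3p, and UGGAUAU by miR-376c-5p and miR-376b-5p. Outside the seed, 4 members hold the stretch GGUCCACUA, read on the mature strand only, and no other of the 682 miRNAs of the table with a RefSeq sequence holds it (0.587% of them in all). They are shown with that stretch in capitals, since 3 of them, miR-379-3p, miR-411-3p and miR-412-3p, are among the 9 most abundant members.
miR-379-3p: cuauguaacauGGUCCACUAac
miR-411-3p: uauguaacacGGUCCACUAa
miR-758-3p: uuugugaccuGGUCCACUAacc
miR-412-3p: cuucaccuGGUCCACUAgccgu
Shifted by 1 base, miR-379-3p and miR-411-3p overlap over 20 bases with 1 mismatch. Their counts are therefore uncertain where the counting could assign a read to either, as the mismatches allowed are not given in the sources used here.

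The libraries held 382665 to 1792805 UMIs in MSCTXL-Exo and 453812 to 1000585 in MSC-Exo. Libraries are named by their column numbers, 10, 12 and 13 in each group, and values follow that order. Library 13 was the deepest of each group. Whether separate cultures lay behind them is not stated, and the p-values cover only the spread between the libraries at hand. Levels are given in CPM, the UMI count relative to the library total after scaling by TMM (trimmed mean of M values). A count of 0 allows up to 3 UMIs, or 1.67 to 7.84 CPM by library on the library total before that scaling. These limits and the intervals below cover counting error only. The mesenchymal markers (6 of 6 detected, among them miR-199a-3p and miR-143-3p) summed to 154958 to 209571 CPM in MSCTXL-Exo and 173064 to 212432 CPM in MSC-Exo. The blood and immune markers (6 of 6, none at 0 in every library) summed to 214 to 332 CPM in MSCTXL-Exo and 335 to 450 CPM in MSC-Exo, without overlap, and their part in the results was not tested. The neuronal markers (4 of 4 detected, but only 2 past the filter on low counts) summed to 1489 to 1818 CPM in MSCTXL-Exo and 1426 to 1842 CPM in MSC-Exo.

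The exosomes carried a small amount of nearly every member, and a few arms made up most of it. All 67 members had UMIs in at least 1 library and 41 had UMIs in all 6, but 36 never exceeded 10 UMIs in any library. By mean CPM over the 6 libraries 9 members lay above 100 CPM, 19 between 10 and 100 CPM, and 39 at or below 10 CPM. The 6 most abundant held 74.1% to 83.3% of the cluster's CPM in MSCTXL-Exo and 75.5% to 78.7% in MSC-Exo. These were miR-376b-3p (mean 1120 CPM, rank 61 of 749), miR-412-3p (1099 CPM, rank 62), miR-668 (920 CPM), miR-369-3p (699 CPM), miR-411-3p (676 CPM) and miR-379-5p (620 CPM). The cluster's share of all UMIs was lowest in MSCTXL-Exo library 13, at 0.304% (exact Clopper-Pearson 95% interval 0.296% to 0.312%), and highest in MSC-Exo library 10, at 1.22% (1.19% to 1.25%).

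**Figure D1:**
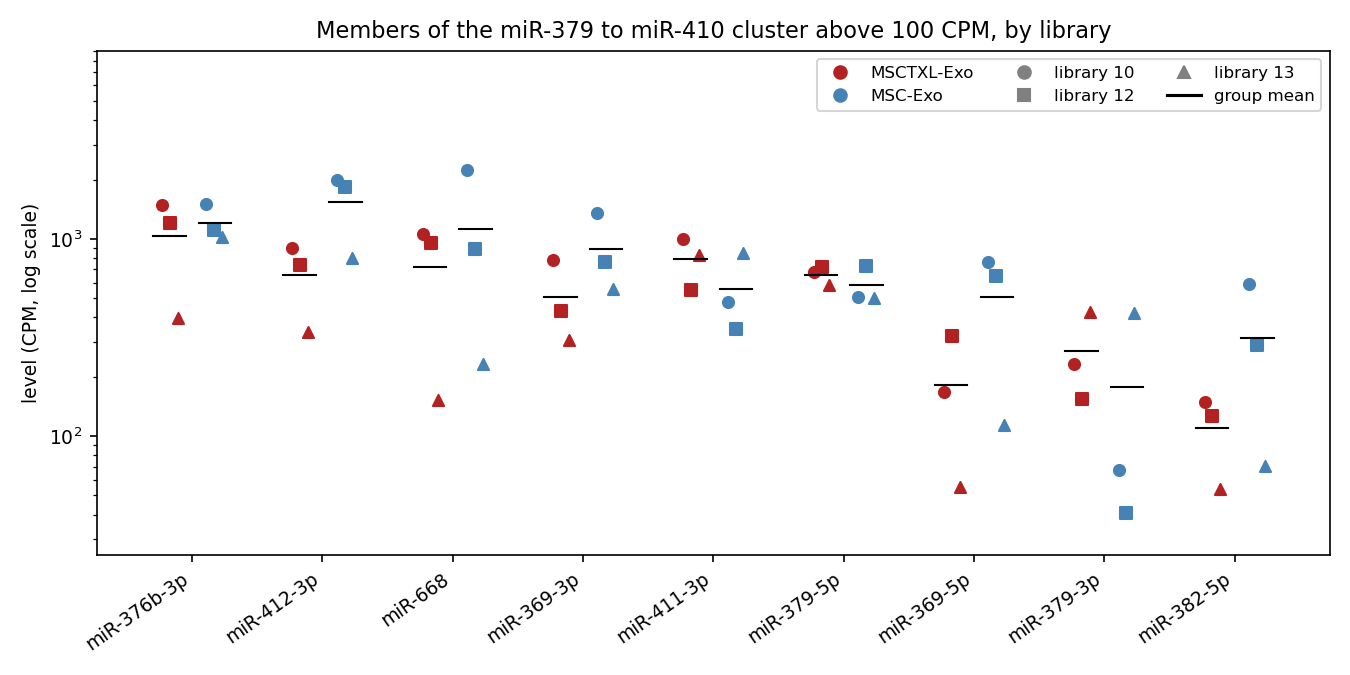
Levels of the 9 members above 100 CPM in each library (CPM, log axis), with MSCTXL-Exo left of MSC-Exo for each member, 1 symbol per library number and a line at each group mean. For miR-412-3p the MSCTXL-Exo libraries lie at 337 to 898 CPM and the MSC-Exo libraries at 800 to 1981 CPM. In both groups library 13 is the lowest for every member shown except miR-379-3p and miR-411-3p.

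Which arm of a hairpin prevailed differed along the cluster. Of the 31 hairpins with both arms in the table, 17 had at least 100 UMIs over the 6 libraries, the 5p arm having more UMIs in 12 and the 3p arm in 5. Some were near even (5p against 3p), miR-329 with 87 against 75, miR-409a with 97 against 93 and miR-134 with 76 against 88 UMIs. miR-376b and miR-412 were almost wholly 3p, with 4702 against 3 and 4552 against 14 UMIs. miR-382 was almost wholly 5p, with 821 against 13 UMIs. The boundary member miR-410-3p, which in cultured rat cardiomyocytes promotes proliferation, was near absent. It had 0, 0 and 2 UMIs in MSCTXL-Exo libraries 10, 12 and 13 and 2, 0 and 2 UMIs in MSC-Exo. Its sister arm miR-410-5p had 82 UMIs in all.

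The miR-376 family, whose seeds are known as sites of A-to-I RNA editing in brain, was carried by 1 member. miR-376b-3p, which is known from human cells to repress autophagy genes, had 1478, 1210 and 399 CPM in MSCTXL-Exo and 1497, 1112 and 1024 CPM in MSC-Exo. The groups overlapped, with MSCTXL-Exo library 13 the lowest of the 6 (log2 fold change -0.24, SE 0.48). Over the 6 libraries its relatives miR-376a-3p and miR-376c-3p had 10 and 12 UMIs, too few to pass the filter on low counts. miR-376a-3p differs from miR-376b-3p at 3 bases, so their counts are uncertain where reads could be assigned to either. Of the 5 members listed for edited seeds, 3 were tested, 0 passed the thresholds and 2 were negative (median -0.24).

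Summed over all 67 members, the cluster had 7086, 6045 and 3525 CPM in MSCTXL-Exo, against 10663, 7220 and 5037 CPM in MSC-Exo. In both groups library 10 was the highest and library 13 the lowest, and MSCTXL-Exo libraries 10 and 12 lay between MSC-Exo libraries 12 and 13, so the groups overlapped. The group means were 5552 ± 1831 CPM in MSCTXL-Exo and 7640 ± 2837 CPM in MSC-Exo (SD, n = 3 each), a log2 ratio of -0.46. Without MSC-Exo library 10 it was -0.17, and without MSCTXL-Exo library 13 it was -0.26. The spread between single libraries of a group, 0.53 on the log2 scale (1 SD), was larger than the difference. That spread includes the differences between library numbers and is not the error of a difference of means. Within a library number the sum in MSCTXL-Exo was 0.664 (10), 0.837 (12) and 0.70 (13) times that in MSC-Exo.

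Of the 67 members 28 passed edgeR's filter on low counts, which kept 392 of the 749 miRNAs, and were tested by its quasi-likelihood test. By the study's thresholds, more than a 2-fold difference at an unadjusted p below 0.05, 1 of the 28 was lower in MSCTXL-Exo and 0 were higher. Over all tested miRNAs 3.57% passed these thresholds in either direction and 1.79% as lower, so the members' count stood near the background. After Benjamini-Hochberg adjustment over all 392 miRNAs, edgeR left 0 members under 0.05 (smallest adjusted p among them = 0.972). DESeq2, by its own adjustment, and limma-voom also left 0. In edgeR 1 of the 28 had an unadjusted p under 0.05, against 3.57% of all tested miRNAs. The 28 members had 18 negative and 10 positive log2 fold changes (median -0.27), against 47.4% negative over all tested miRNAs (median 0.03). In the fit with a replicate block for the library number, described next, these were again 18 (median -0.22), against 50% of all. That median became 0.15 without MSC-Exo library 10, where 12 of 28 were negative, and -0.08 without MSCTXL-Exo library 13. The filter chose the 28 partly by their level in these libraries. Over all 67 members with no filter, 45 were negative (median -0.27), against 52.1% of all 749.

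The libraries of both groups share the numbers 10, 12 and 13, and the deviations of same-numbered libraries from their group means correlated at 0.434 (10), 0.179 (12) and 0.70 (13). For number 12 the link was weak, since MSCTXL-Exo library 12 correlated more with MSC-Exo library 10 (0.347) than with MSC-Exo library 12. With this number as a block, 5 of the 28 members passed the 2-fold and unadjusted p thresholds, 4 lower and 1 higher in MSCTXL-Exo, against 7.4% of all tested miRNAs (5.87% as lower and 1.53% as higher). The lower ones were miR-412-3p, miR-369-5p, miR-382-5p and miR-541-5p, and the higher one was miR-379-3p. With the block 6 members had an unadjusted p under 0.05, against 10.7% of all. None of the 28 had an adjusted p under 0.05 from the blocked edgeR test (smallest 0.111), where 0.255% of all did, or from limma-voom with the block. DESeq2 with the block had 2, miR-412-3p (adjusted p = 0.00252) and miR-369-5p (adjusted p = 0.00553). The share over all tested miRNAs is not given for that fit, so these 2 cannot be set against its background. The sources used here do not say what the numbers mark, and library totals rise with them in both groups, so the number and the depth cannot be told apart.

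The far end of the cluster, where miR-409a, miR-412, miR-369 and miR-410 lie within less than 1 kb, held the member that passed without the block. miR-412-3p had 898, 739 and 337 CPM in MSCTXL-Exo and 1981, 1836 and 800 CPM in MSC-Exo, from 360, 597 and 521 UMIs and 1027, 1306 and 741 UMIs. Only MSCTXL-Exo library 10 exceeded the lowest MSC-Exo library, so the groups overlapped by 1 library. The log2 fold change was -1.23 (SE 0.49; edgeR's quasi-likelihood test, unadjusted p = 0.036, adjusted p = 0.972), and with the block -1.23 (SE 0.21; adjusted p = 0.111). Within the numbers the log2 ratios were -1.14 (10), -1.31 (12) and -1.25 (13), lower in 3 of 3. miR-412-3p lost its call without the block when MSC-Exo library 10 (-1.03), MSC-Exo library 12 (-1.08), MSCTXL-Exo library 12 (-1.33) or MSCTXL-Exo library 13 (-0.96) was left out, and with library totals in place of TMM (-1.31).

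Both arms of the neighboring hairpin miR-369 were lower in MSCTXL-Exo within every library number. miR-369-5p had 167, 321 and 55.0 CPM in MSCTXL-Exo and 768, 647 and 115 CPM in MSC-Exo. Library 13 was far below the others in both groups, so that the groups overlapped (log2 fold change -1.49, SE 0.82). With the block miR-369-5p fell by 1.41 on the log2 scale (SE 0.34; edgeR adjusted p = 0.207). Without the block it passed both thresholds when MSC-Exo library 13 (-2.03) or MSCTXL-Exo library 12 (-2.22) was left out, and it was -1.09 without MSC-Exo library 10. miR-369-3p, an arm known in human cells to bind the AU-rich element of TNF mRNA, had 785, 433 and 309 CPM in MSCTXL-Exo and 1352, 762 and 555 CPM in MSC-Exo. Its highest MSCTXL-Exo library reached the middle MSC-Exo library (log2 fold change -0.81, SE 0.48, and -0.81, SE 0.22, with the block), and its ratios within the numbers were close to each other, at -0.78, -0.81 and -0.85. Without MSCTXL-Exo library 10 it passed both thresholds (-1.25), and without MSC-Exo library 10 it was -0.40. The share of the 3p arm among the miR-369 UMIs was 82.5%, 57.5% and 84.9% in MSCTXL-Exo and 63.8%, 54.1% and 82.9% in MSC-Exo. The exact 95% intervals are 78.3% to 86.1%, 53.4% to 61.4% and 81.6% to 87.7% in MSCTXL-Exo and 60.9% to 66.6%, 50.9% to 57.2% and 79.7% to 85.8% in MSC-Exo. They were apart for number 10 and overlapped for 12 and 13.

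At 26.5 kb from miR-379-5p, miR-382-5p had 150, 126 and 53.7 CPM in MSCTXL-Exo and 588, 290 and 70.2 CPM in MSC-Exo. Here the MSC-Exo libraries spread over more than the MSCTXL-Exo libraries, and MSC-Exo library 13 lay inside the MSCTXL-Exo range. The log2 fold change was -1.53 (SE 0.76; edgeR adjusted p = 0.972) and with the block miR-382-5p fell by 1.19 (SE 0.37; adjusted p = 0.326). Without the block it passed both thresholds with DESeq2 (-1.52), with no filter (-1.52) and without MSC-Exo library 13 (-2.04), while without MSC-Exo library 10 the value was -0.74. miR-541-5p had 52.4, 48.3 and 14.2 CPM in MSCTXL-Exo and 191, 47.8 and 40.0 CPM in MSC-Exo. MSC-Exo library 10 alone stood above 100 CPM and the other libraries overlapped, number 12 having a log2 ratio of 0.01. Its log2 fold change was -1.30 (SE 0.77), and with the block miR-541-5p fell by 1.11 (SE 0.44; edgeR adjusted p = 0.398). In the fit with no block the value was -0.25 without MSC-Exo library 10, and it passed both thresholds without MSC-Exo library 13 (-1.70).

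miR-409a-3p was the one tested member with every MSCTXL-Exo library below every MSC-Exo library, and 3.32% of all tested miRNAs had this pattern. It had 9.97, 17.3 and 13.6 CPM in MSCTXL-Exo and 28.9, 26.7 and 21.6 CPM in MSC-Exo, from 4 to 21 and 15 to 20 UMIs. The difference did not pass the thresholds (log2 fold change -0.87, SE 0.40; edgeR adjusted p = 0.972). The table also lists miRNAs on the other strand of the interval, 8 in all, and each pairs with a member over 17 to 22 bases without a mismatch. The most frequent of them, miR-409b, covers the whole of miR-409a-3p, and both are shown with the seed in capitals.
miR-409a-3p: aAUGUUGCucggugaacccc
miR-409b: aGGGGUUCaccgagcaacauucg
miR-409b, though on the other strand, was more frequent than miR-409a-3p, with 192 against 93 UMIs over the 6 libraries. It had 42.4, 32.2 and 20.7 CPM in MSCTXL-Exo and 82.9, 50.6 and 41.0 CPM in MSC-Exo, the groups overlapping by 1 library (log2 fold change -0.89, SE 0.47). The other miRNAs of that strand had 39 UMIs or fewer each.

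At the near end the values ran the other way for the 3p arms of miR-379 and miR-411. miR-379-3p had 232, 155 and 425 CPM in MSCTXL-Exo and 67.5, 40.8 and 423 CPM in MSC-Exo. MSC-Exo libraries 10 and 12 stood apart at the low end, while the libraries numbered 13 were equal within 1%. Without the block its log2 fold change was 0.60 (SE 0.86), and with the block it rose by 1.19 (SE 0.45; edgeR adjusted p = 0.388), with ratios of 1.78 (10), 1.92 (12) and 0.00 (13) on the log2 scale. The unblocked value was 2.31 and passed both thresholds without MSC-Exo library 13, but it was 0.17 without MSC-Exo library 10, 0.13 without MSC-Exo library 12 and 0.08 without MSCTXL-Exo library 13. The boundary member miR-379-5p, the other arm of the same hairpin, had 678, 717 and 583 CPM in MSCTXL-Exo and 509, 732 and 503 CPM in MSC-Exo. These 6 levels lay close together, and the groups overlapped (log2 fold change 0.18, SE 0.31). The share of the 3p arm among the miR-379 UMIs was therefore higher in MSCTXL-Exo for numbers 10, with 25.5% (exact 95% interval 21.1% to 30.3%) against 11.7% (8.29% to 15.9%), and 12, with 17.8% (15.0% to 20.8%) against 5.27% (3.56% to 7.49%). For number 13 it was 42.2% (39.7% to 44.7%) in MSCTXL-Exo and 45.7% (42.3% to 49.1%) in MSC-Exo, with overlapping intervals.

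miR-411, the next hairpin, was nearly all 3p, with 3410 against 133 UMIs. miR-411-3p, whose sequence is close to that of miR-379-3p, had 997, 550 and 832 CPM in MSCTXL-Exo and 480, 349 and 847 CPM in MSC-Exo. As for miR-379-3p, MSC-Exo libraries 10 and 12 were the lowest and the libraries numbered 13 were close (log2 fold change 0.50, SE 0.42, and 0.56, SE 0.29, with the block). miR-411-5p had 17.5, 28.5 and 19.4 CPM in MSCTXL-Exo and 30.9, 46.4 and 25.9 CPM in MSC-Exo. It was lower in MSCTXL-Exo within each number, with log2 ratios of -0.82, -0.70 and -0.42, but the groups overlapped (log2 fold change -0.64, SE 0.43), so the arms of this hairpin differed in sign.

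miR-758-5p was the one tested member with every MSCTXL-Exo library above every MSC-Exo library, against 4.08% of all tested miRNAs. It had 27.4, 63.1 and 25.2 CPM in MSCTXL-Exo and 23.1, 7.03 and 20.5 CPM in MSC-Exo. MSCTXL-Exo library 12 stood far above the rest and the other libraries lay between 20 and 28 CPM except MSC-Exo library 12 (log2 fold change 1.2, SE 0.59; edgeR adjusted p = 0.972). With upper quartile factors it passed both thresholds (1.22), and without MSCTXL-Exo library 12 it was 0.62. In the middle of the cluster miR-668, which is known to protect mitochondria in the ischemic mouse kidney, had 1062, 956 and 153 CPM in MSCTXL-Exo and 2232, 887 and 232 CPM in MSC-Exo. Within each group library 13 was several-fold below the others, and the groups overlapped (log2 fold change -0.63, SE 0.89). Without MSC-Exo library 10 the sign of this value turned, to 0.35.

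Among the tested members the share of negative values differed with position in the cluster. LOC102555254 holds 14 tested members, of which 5 had a negative log2 fold change (median 0.34), and LOC120103623 holds 14, of which 13 were negative (median -0.72). The widest gap between neighboring members, between miR-544-3p and miR-382-5p, divides them nearly the same way. On the miR-379 side, 43 members, 6 of 15 tested were negative (median 0.18), and on the miR-410 side, 24 members, 12 of 13 (median -0.81), miR-485-5p being the exception. With the block the counts were again 6 of 15 (median 0.20) and 12 of 13 (median -0.52). Within the numbers 7 (10), 4 (12) and 10 (13) of the 15 were lower in MSCTXL-Exo, and 10, 9 and 11 of the 13. In number 13 most tested members were thus lower on both sides. With no filter 24 of 43 members were negative on the miR-379 side (median -0.14) and 21 of 24 on the miR-410 side (median -0.56). Over the 28 members Spearman's correlation of the log2 fold change with the distance from miR-379-5p was -0.58, and within the numbers it was -0.45 (10), -0.54 (12) and -0.44 (13). This is a description across members of the same 6 libraries, and arms of 1 hairpin share a precursor. Both divisions were made after the values were seen and were not tested.

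**Figure D2:**
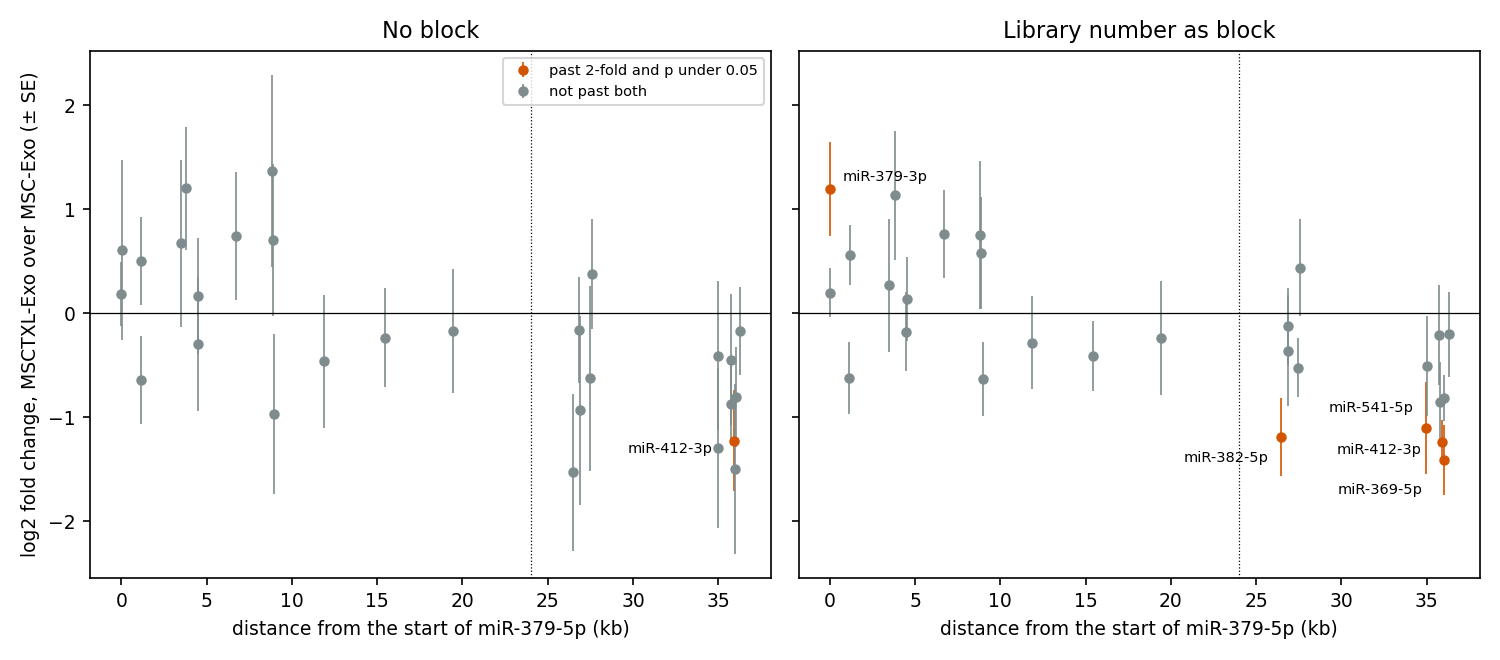
Log2 fold change (MSCTXL-Exo over MSC-Exo, ± SE) of the 28 tested members against their distance from the start of miR-379-5p in kb, without the block (left) and with the library number as a block (right); orange points passed 2-fold and an unadjusted p under 0.05, and the dotted line marks the widest gap. Left of it 6 of 15 points lie below 0 and right of it 12 of 13, in both panels.

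Summed over all its members, the miR-410 side had 3296, 2782 and 1031 CPM in MSCTXL-Exo and 7388, 4641 and 1953 CPM in MSC-Exo, and the groups overlapped through MSC-Exo library 13. Within the numbers MSCTXL-Exo had 0.446 (10), 0.60 (12) and 0.528 (13) times the level of MSC-Exo. The miR-379 side had 3790, 3262 and 2494 CPM in MSCTXL-Exo and 3275, 2580 and 3084 CPM in MSC-Exo, or 1.16, 1.26 and 0.809 times. The log2 ratio of the group means was -0.98 for the miR-410 side and 0.09 for the miR-379 side. For the miR-410 side it was -0.50 without MSC-Exo library 10 and -0.66 without MSCTXL-Exo library 13, and -0.97 to -1.38 without any other library. Of the tested members of that side, 9 of 13 were negative without MSC-Exo library 10 and 11 or 12 without any other library. On the miR-379 side 3 of 15 were negative without MSC-Exo library 10 and 10 of 15 without MSCTXL-Exo library 12.

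**Figure D3:**
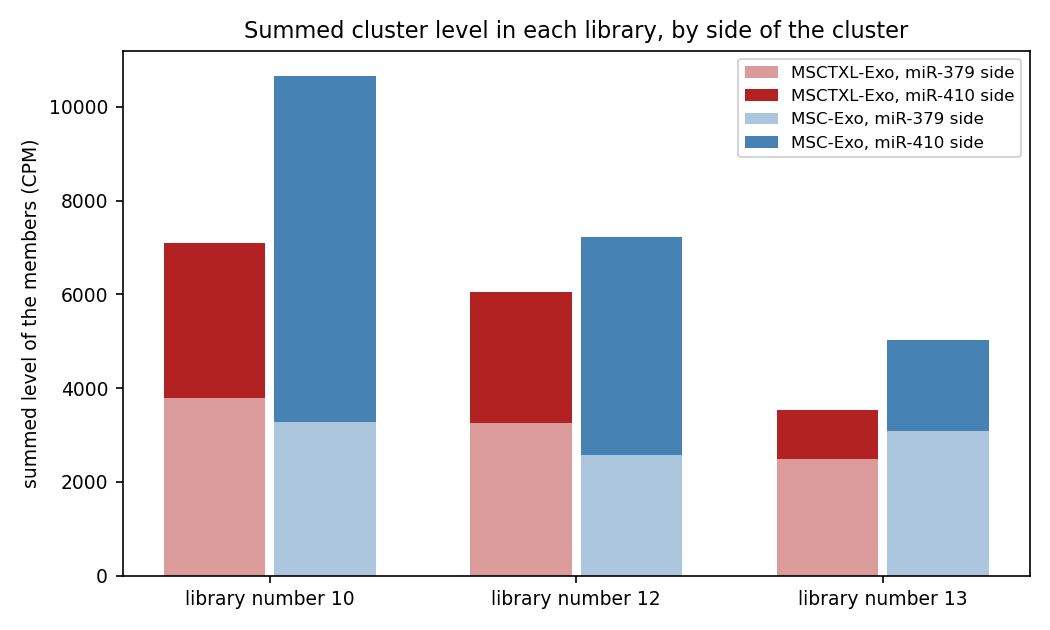
Summed level of all members (CPM) in each library, MSCTXL-Exo left of MSC-Exo for each library number, divided into the miR-379 side (pale) and the miR-410 side (dark). The dark part is smaller in MSCTXL-Exo for every number, 3296 against 7388 CPM for number 10, 2782 against 4641 CPM for 12 and 1031 against 1953 CPM for 13.

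The levels of the cluster also differed between library numbers, with similar medians in both groups. From library 13 over library 10, the median log2 ratio of the tested members was -0.95 on the miR-379 side and -1.36 on the miR-410 side in MSCTXL-Exo, and -0.97 and -1.31 in MSC-Exo, against -0.11 over all tested miRNAs in each group. Both medians between the numbers were further from 0 than those between the groups. The sum of the miR-379 side was less alike. From library 10 to 13 it went from 3790 to 2494 CPM in MSCTXL-Exo and from 3275 to 3084 CPM in MSC-Exo. Within the numbers, 8 of the 28 members were lower in MSCTXL-Exo in all 3, where 18.4% of all tested miRNAs were, and 3 were higher in all 3, where 13.8% of all were. The 8 were miR-411-5p, miR-543-5p, miR-382-5p, miR-134-5p, miR-409a-3p, miR-412-3p, miR-369-5p and miR-369-3p, and the 3 were miR-379-3p, miR-758-5p and miR-494-3p.

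**Figure D4:**
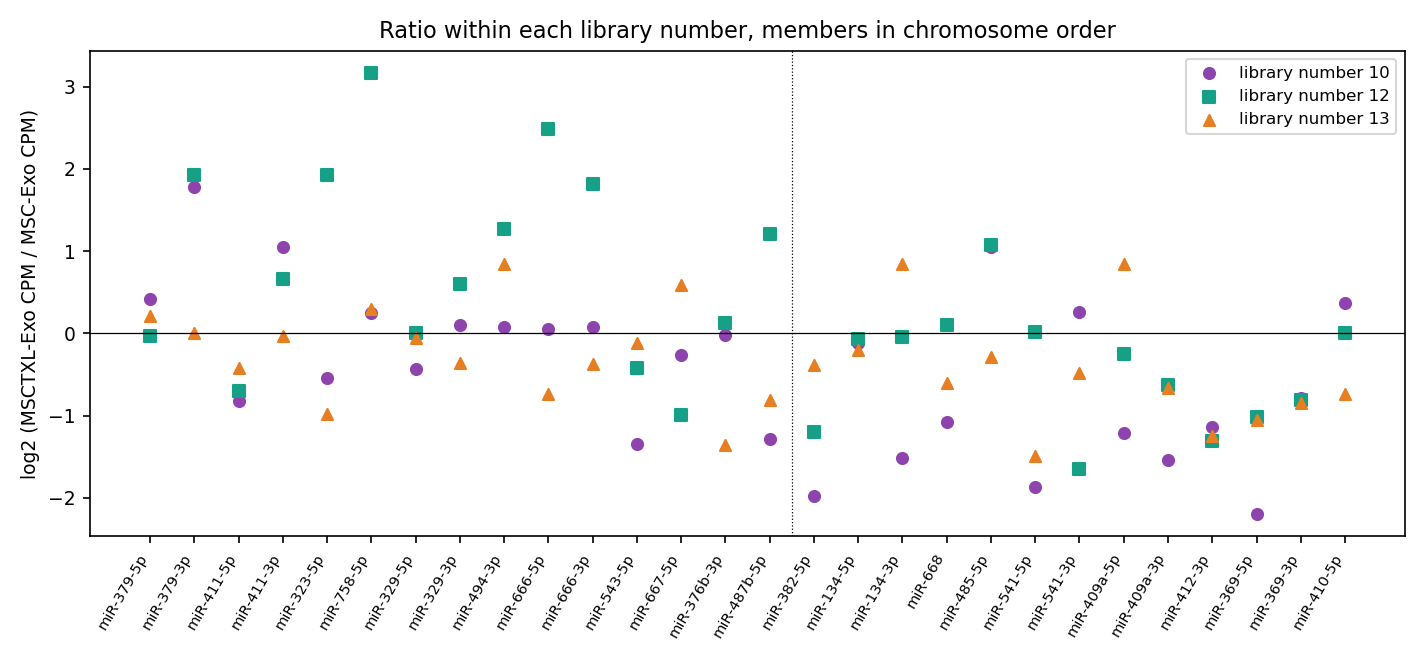
Log2 ratio of MSCTXL-Exo to MSC-Exo CPM within each library number for the 28 tested members in chromosome order, the dotted line marking the widest gap. The 3 symbols of miR-412-3p (-1.14, -1.31 and -1.25) and of miR-369-3p (-0.78, -0.81 and -0.85) nearly coincide, while those of miR-758-5p run from 0.24 to 3.17.

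The listed members with a known role in vessels or heart had 85 UMIs or fewer each over the 6 libraries, and none passed the thresholds. Of the miRNAs whose silencing improves blood flow after ischemia in the mouse hindlimb, miR-494-3p and miR-329-3p were tested and miR-487b-3p and miR-495 were not (median of the tested ones 0.45). miR-494-3p had 22.4, 37.1 and 11.7 CPM in MSCTXL-Exo and 21.2, 15.5 and 6.48 CPM in MSC-Exo, overlapping (log2 fold change 0.74, SE 0.61). miR-329-3p had 24.9, 23.5 and 8.42 CPM in MSCTXL-Exo and 23.1, 15.5 and 10.8 CPM in MSC-Exo, also overlapping (0.17, SE 0.56), and its sign turned without MSC-Exo library 13 (-0.12). Neither passed the thresholds, with or without the block. Of the heart list, which holds miR-410-3p, miR-495 and miR-154-5p, 0 of 3 were tested. miR-495, which like miR-410-3p promotes proliferation of rat cardiomyocytes, had 1, 6 and 0 UMIs in MSCTXL-Exo and 3, 3 and 3 UMIs in MSC-Exo. miR-154-5p, whose inhibition protects the mouse heart under pressure load, had 0, 8 and 3 UMIs in MSCTXL-Exo and 2, 7 and 3 UMIs in MSC-Exo. No difference was detectable at this depth.

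Of the members known from neurons all 4 listed were tested, and 0 passed the thresholds in either comparison (median log2 fold change 0.17, 1 of 4 negative). miR-134-5p, which restrains dendritic spines in rat neurons through Limk1, had 24.9, 16.1 and 10.4 CPM in MSCTXL-Exo and 27.0, 16.9 and 11.9 CPM in MSC-Exo. The groups lay on each other (log2 fold change -0.16, SE 0.51), as its 3 within-number ratios also showed, at -0.12, -0.07 and -0.20. miR-485-5p, which in rat neurons targets the synaptic vesicle protein SV2A, had 19.9, 14.9 and 19.4 CPM in MSCTXL-Exo and 9.64, 7.03 and 23.8 CPM in MSC-Exo. It was the one tested member of the miR-410 side with a positive value (0.37, SE 0.53), and its groups overlapped through MSC-Exo library 13.

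The other miRNAs of the domain on the same strand, 25 in the 250000 bases before miR-379-5p, showed how the cluster compared with its surroundings. Of these 12 were tested, of which 10 had a negative log2 fold change (median -0.48), against 47.4% of all tested miRNAs. Past both thresholds miR-433-5p was lower and miR-370-5p higher, where 1.79% of all were lower and 1.79% higher. With the block miR-433-5p, miR-341 and miR-1188-5p were lower and 0 were higher, against 5.87% and 1.53% of all. The value of miR-370-5p rested on MSCTXL-Exo library 12, with 462 CPM against 9.72 to 18.1 CPM in the other libraries. Without miR-1188-5p, which alone reached 37337 CPM in MSC-Exo library 10, their sum was 4084, 3874 and 1329 CPM in MSCTXL-Exo and 7521, 4364 and 2055 CPM in MSC-Exo. Within the numbers this was 0.543 (10), 0.888 (12) and 0.647 (13) times the level of MSC-Exo, beside 0.664, 0.837 and 0.70 times for the cluster. With miR-1188-5p included, the sum was 0.252 (10), 0.617 (12) and 0.913 (13) times that of MSC-Exo, unlike the cluster. In both sets and both groups library 13 was the lowest.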

How the data were processed

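Libraries were made with the QIAseq miRNA Library Kit, which tags each molecule with a unique molecular identifier (UMI). The sample labels and the series design name different Illumina platforms. Per the labels, the authors used cutadapt 2.7 and Bowtie 1.2.2 and deposited UMI counts of mature miRNAs; the genome build, miRNA annotation and mismatches allowed are not given in the sources used here. The deposited table has 833 lines for 749 miRNAs, as 69 miRNAs with several loci are repeated, and 1 line per miRNA was kept. The authors' CPM, in 6 further columns, were left out. Column letters M and T were read as MSC-Exo and MSCTXL-Exo. Nothing links the column numbers (10, 12, 13) to the titles' replicates.

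The main test was the quasi-likelihood test of edgeR 4.0.16 (R 4.3.3) on all miRNAs without a block, after filterByExpr (minimum count 10, minimum total 15) and with TMM (trimmed mean of M values) factors of 0.862 to 1.14. The thresholds were those of the study's methods, and p-values of the main test were adjusted over all 392 tested miRNAs by Benjamini-Hochberg. For DESeq2 its own adjusted p-values were used. With the block these were missing for some tested members, among them miR-134-5p and miR-409a-3p, so that adjustment did not cover all tested miRNAs. All 3 correlations between same-numbered libraries exceeded 0.1, the limit set for pairing, so blocked values are given beside results whose call they change. The block lowered edgeR's biological coefficient of variation to 0.312, against 0.481. Alternatives were DESeq2 1.42.0, limma-voom (limma 3.58.1), other scalings and filters, the block, and each library left out.

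Members, lists and tests were chosen with earlier results of these data known. Members with every library's value were those past the thresholds with or without the block, those with groups apart, the 6 most abundant, the boundary members and the tested members of the role lists (vessel, heart, neuron, edited seeds). miR-409b was added after its values were seen. Endothelial markers summed to 807 to 1340 CPM in MSCTXL-Exo and 1018 to 1403 CPM in MSC-Exo, and liver and serum markers to 246 to 472 CPM and 305 to 351 CPM. No tested marker of any list passed the thresholds with or without the block. Of the blood and immune markers 4 of 6 were tested, of the neuronal markers 2 of 4, and of the other lists all. Mature sequences are from RefSeq; lengths are 18 to 25 bases, so CPM was not divided by length.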

Additional observations from a re-analysis of the deposited data

How the results depend on the processing

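The members past 2-fold and an unadjusted p under 0.05, 1 of 28, became 0 with library totals only, 2 with upper quartile factors, with no filter and with DESeq2, 5 with the replicate block in edgeR, DESeq2 and limma-voom, and 0 to 5 when each library was left out. The members with an adjusted p under 0.05, 0 with edgeR, became 2 with DESeq2 and the replicate block and stayed at 0 in the other settings run. For these 2 the share over all miRNAs in the same fit is not given. Over all miRNAs the count of 14 became 34 with no filter, 6 with at least 10 counts in every library, 24 with DESeq2, 9 with limma-voom, 29 with the replicate block, 28 with DESeq2 and the block, 33 with limma-voom and the block, and 6 to 38 with a library left out. The block changed no other call among the members named than those given with the results. The median log2 fold change of the tested members, -0.27, ran from -0.53 to 0.15 with a library left out, and the log2 ratio of the cluster's sums, -0.46, from -0.72 to -0.17. The division of the cluster at its widest gap was chosen after the data were seen. Its negative values numbered 21 and 24 on the miR-410 and miR-379 sides with no filter (24 and 43 tested) and 7 and 2 with at least 10 counts in every library (7 and 6 tested), and with a library left out they ran from 9 to 12 and from 3 to 10. Signs turned only with a library left out, for 4 of the named members, none of them past the thresholds: miR-134-5p (-0.47 to 0.15), miR-668 (-1.15 to 0.35), miR-329-3p (-0.12 to 0.53) and miR-376b-3p (-0.58 to 0.11). The cause was not tested. The 39 members that did not pass the filter on low counts had 49 UMIs or fewer each over the 6 libraries. They could not be compared at this depth.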
